A study of Homo sapiens with 2 samples.

Results

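The genes described here are those of cholesterol and fatty acid synthesis and of the machinery that senses and exports sterols, followed through the release of c-Myc in P493-6 cells. They were a named list of 39 gene symbols, and each symbol was represented by its transcript with the highest mean RPKM over the libraries. Of the 39, 38 were found among the 19096 gene symbols of the tables, 17 of 18 for sterol synthesis, 11 of 11 for fatty acid synthesis and 10 of 10 for sterol regulation and efflux. SC4MOL had no row under that symbol. RefSeq gives MSMO1 as the current symbol of that gene, and MSMO1 was present. Its values are given below but not counted with the 38. P493-6 is a human B cell line, given in the labels as B-cell lymphoma, with a c-Myc transgene that tetracycline silences, grown in RPMI 1640 medium with fetal bovine serum. The low c-Myc library came from cells at 0 h of release from repression and the high c-Myc library from cells at 24 h of release, 1 library each. Both samples received synthetic RNAs in proportion to cell number. Since neither group was replicated, the comparison has no replicate check and no test, and the values hold for these 2 libraries. In such bulk RNA a smaller share of cells with a transcript and less of it per cell cannot be told apart.

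Cells make cholesterol from acetyl-CoA through mevalonate, squalene and lanosterol, and they make fatty acids from the same acetyl-CoA through malonyl-CoA. The SREBP transcription factors, encoded by SREBF1 and SREBF2, drive both pathways. They are held in the endoplasmic reticulum with the escort protein SCAP and the INSIG proteins while sterols are plentiful. The LXR receptors, encoded by NR1H2 and NR1H3, sense oxidised sterols and activate the exporters ABCA1 and ABCG1. Dividing lymphocytes need both products for new membrane.

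Levels are given as RPKM, that is, reads per kilobase of transcript at a common library size, so that they can be compared between genes. The depth implied by the steps between the lowest values was about 103000000 reads at 0 h and 105500000 reads at 24 h. All 8 B cell markers examined had an RPKM of at least 26.1 at both times, but their summed RPKM was 15213 at 0 h and 6495 at 24 h, with MS4A1 at 962 and 204. The 3 adipocyte markers were listed at 0 in both libraries. None of the 3 hepatocyte markers reached an RPKM of 1. Of 5 T cell, 5 myeloid and 5 fibroblast and epithelial markers, 3 each reached an RPKM of 1 in either library. Their summed RPKM was 12.5, 151 and 19.2 in the low c-Myc library and 1.96, 35.6 and 13.0 in the high one. The highest of the T cell markers was CD3E, at 8.30 and 1.5, while CD3D and TRAT1 were at 0 in both. Of the myeloid markers CD68 stood at 66.5 and 11.1, ITGAM at 56.8 and 19.5 and LYZ at 27.2 and 4.91, while CD14 was at 0.07 in both and CSF1R at 0.01 and 0.03. The part of these differences in the results was not tested.

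All 38 members had a mean RPKM of at least 1, which placed them among the 10272 expressed genes. Their median RPKM was 13.7 at 0 h and 22.6 at 24 h, against 7.57 and 9.35 for all expressed genes. A gene was called higher or lower when its log2 ratio of high over low c-Myc, on the RPKM + 0.5 scale, was at or beyond 1 or -1, that is 2-fold. By that rule 12 of the 38 members were higher and 4 lower at 24 h, where 24.9% of all expressed genes were higher and 9.74% lower. A ratio above 0 was found for 27 of the 38, against 58.6% of all expressed genes. These signs depend on the scale, since synthetic RNAs held 17.5% of the summed RPKM at 0 h and 2.75% at 24 h. With both libraries at 1 RPKM sum over the genes alone, the median log2 ratio of all expressed genes was -0.07. The sign of 4 members then changed. The split differed between the 3 groups of members. In sterol synthesis 7 of 17 were higher and none was lower, in fatty acid synthesis 3 of 11 were higher and 1 was lower, and in sterol regulation and efflux 2 of 10 were higher and 3 were lower. The median log2 ratios were 0.95, 0.38 and -0.05, against 0.22 for all expressed genes. The 75% share of higher genes among the called members was 61.5% (8 higher, 5 lower) with both libraries brought to 1 RPKM sum over the genes alone and 54.5% (6 and 5) after quantile normalization. The share among all called genes was 71.8% and became 52.9% and 50.1% under the same scalings. After a correction for transcript GC content 8 of 36 members were higher and 0 lower. Of all genes with a GC value 21.4% were then higher and 9.12% lower, so the count of higher members was near the background. The share of higher genes among all called genes was then 70.1%.

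**Figure D1:**
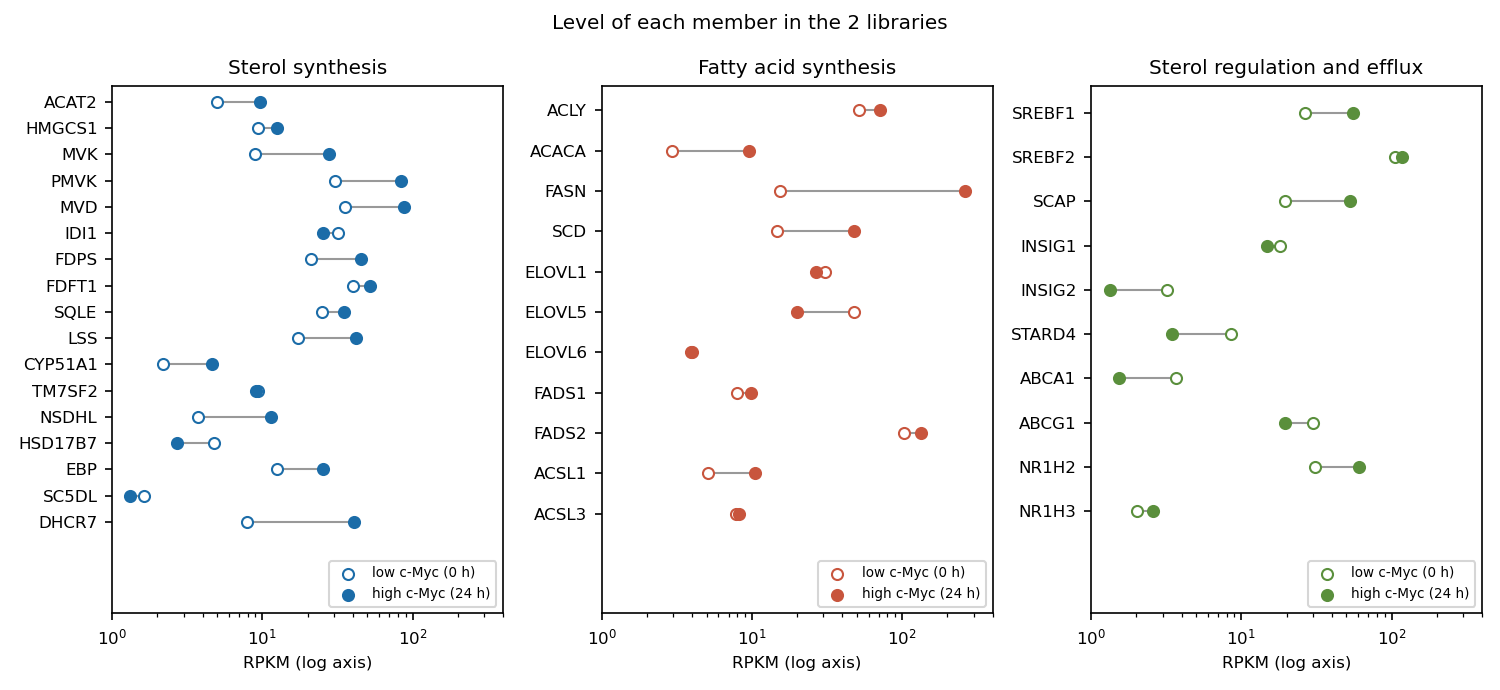
Level of each of the 38 members in each library, as RPKM on a log axis, with open points for the low c-Myc library (0 h) and filled points for the high c-Myc library (24 h). FASN spans the widest interval, from 15.5 to 263, while INSIG2, STARD4, ABCA1 and ELOVL5 are the members whose filled point lies more than 2-fold to the left of the open one.

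The mevalonate arm, which turns acetyl-CoA into farnesyl diphosphate, had 4 of its 7 members higher and a median log2 ratio of 1.07. Of all expressed genes 24.9% were higher. After the GC correction 1 of the 7 was higher, where 21.4% of genes with a GC value were. Before that correction the higher genes were the consecutive enzymes MVK, PMVK and MVD, and FDPS at the end of the arm. MVK, which phosphorylates mevalonate, stood at an RPKM of 8.97 at 0 h and 27.9 at 24 h, a 3.10-fold higher level and a log2 ratio of 1.58. PMVK, which adds the next phosphate, stood at 30.3 and 83.3, a log2 ratio of 1.45. MVD, which removes a carboxyl group to give isopentenyl diphosphate, stood at 35.8 and 87.4, a log2 ratio of 1.28. These last enzymes had the highest levels of the arm in the high c-Myc library. FDPS, which builds farnesyl diphosphate, stood at 21.2 and 45.1, a log2 ratio of 1.07.

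The other enzymes of the arm differed less. ACAT2, which joins acetyl-CoA units in the cytosol, stood at an RPKM of 4.96 and 9.65, a log2 ratio of 0.90. HMGCS1, which makes HMG-CoA, stood at 9.29 and 12.6, a log2 ratio of 0.42. IDI1, which isomerises isopentenyl diphosphate between MVD and FDPS, was the member of the arm with the lower level after release, 32.1 at 0 h and 25.2 at 24 h, a log2 ratio of -0.34. In the low c-Myc library IDI1 was thus close to MVD (rank 1354 against 1216 of the expressed genes), and in the high one the ranks were 2676 and 664. After the GC correction their log2 ratios were alike, at 0.09 for IDI1 and 0.02 for MVD.

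In the squalene arm all 3 levels were higher after release, 1 of them past 2-fold. FDFT1, squalene synthase and the first enzyme committed to sterols, stood at an RPKM of 40.3 and 52.0, a log2 ratio of 0.36. SQLE, the squalene epoxidase, stood at 24.9 and 34.9, a log2 ratio of 0.48. LSS, which closes the ring system to form lanosterol, stood at 17.3 and 42.0, a log2 ratio of 1.25. FDFT1 therefore had the highest level of the arm in both libraries, and the gap to LSS was smaller after release.

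The enzymes that convert lanosterol to cholesterol held both ends of the sterol list. DHCR7, which catalyses a final reduction to cholesterol, stood at an RPKM of 7.89 at 0 h and 41.1 at 24 h, a 5.20-fold higher level. Its log2 ratio of 2.31 was the highest of the 17 sterol synthesis genes and ranked 556 of the 10272 expressed genes. NSDHL, a dehydrogenase that takes part in removing methyl groups from the sterol ring, stood at 3.71 and 11.4, a log2 ratio of 1.5. EBP, a sterol isomerase, stood at 12.5 and 25.5, a log2 ratio of 0.999, just under the rule. CYP51A1, the first enzyme after lanosterol, had low levels of 2.17 and 4.66, a log2 ratio of 0.95.

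The other post-lanosterol enzymes were within 2-fold. HSD17B7, which works with NSDHL in the removal of methyl groups, stood at an RPKM of 4.79 at 0 h and 2.71 at 24 h, a log2 ratio of -0.72 and the lowest of the sterol enzymes. TM7SF2, a sterol reductase, stood at 9.31 and 9.13, a log2 ratio of -0.03. After the GC correction TM7SF2 was the lower of these 2 enzymes, at -0.73 against -0.59 for HSD17B7. SC5DL, a sterol desaturase, had the lowest level of all 38 members in both libraries, 1.64 and 1.31, a log2 ratio of -0.24. MSMO1, the oxidase of the demethylation step, stood at 4.17 and 5.15, a log2 ratio of 0.27. With MSMO1 counted the sterol list had 7 of 18 genes higher and a median of 0.92. Before release the DHCR7 level was 0.85 times that of TM7SF2, and after release it was 4.50 times that level.

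The promoters of the sterol genes with the highest and the lowest ratio before the GC correction are shown. Each is the 250 bases before the listed start, read 5′ to 3′ on the gene's strand from RefSeq (GRCh38.p14). Capitals mark matches on either strand to 4 motifs, the E-box CACGTG bound by MYC and related factors, the core CACNCCAC of the sterol response element bound by SREBP, the CCAAT box bound by NF-Y and the GC box GGGCGG bound by Sp1 family factors. The DHCR7 window is chr11:71448394-71448643 on the minus strand, the first of 2 starts listed, and the HSD17B7 window is chr1:162790452-162790701 on the plus strand.
DHCR7: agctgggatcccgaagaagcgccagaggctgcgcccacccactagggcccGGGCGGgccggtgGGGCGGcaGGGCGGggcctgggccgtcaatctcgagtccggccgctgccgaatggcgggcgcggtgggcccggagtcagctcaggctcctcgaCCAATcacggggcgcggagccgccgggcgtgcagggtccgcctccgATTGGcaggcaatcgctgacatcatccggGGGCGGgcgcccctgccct
HSD17B7: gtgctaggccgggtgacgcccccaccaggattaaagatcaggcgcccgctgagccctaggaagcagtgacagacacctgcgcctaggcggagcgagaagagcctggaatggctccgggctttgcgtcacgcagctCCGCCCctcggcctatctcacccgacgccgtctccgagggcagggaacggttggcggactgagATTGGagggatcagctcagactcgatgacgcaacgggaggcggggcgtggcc
The DHCR7 window held 2 CCAAT boxes and 4 GC boxes, the HSD17B7 window held 1 of each, and neither held a match to the E-box or to the sterol response element core. Windows were matched for 33 of the 38 members, with none for ACAT2, FDFT1, SQLE, FASN and ABCG1. A gene counted as holding a motif if any of its listed starts did. Among 14 sterol synthesis genes with a window, 12 held a CCAAT box, including both genes shown, against 42.2% of the 8571 expressed genes with a window and 32% of all 35116 windows. The same was true of 7 of 10 fatty acid synthesis genes and 4 of 9 genes of regulation and efflux. The sterol response element core was present in 2 of 14, 3 of 10 and 3 of 9 genes of the 3 groups, against 6.62% of expressed genes and 4.87% of all windows. The E-box was present in 1 of 14, 1 of 10 and 3 of 9, against 11.9% and 6.34%, and the GC box in 13 of 14, 9 of 10 and 9 of 9, against 75.2% and 42.6%. A match describes these letters in this window and is not a measured binding site.

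Fatty acid synthesis was dominated by FASN, the synthase that builds palmitate from malonyl-CoA. FASN stood at an RPKM of 15.5 at 0 h and 263 at 24 h, a 17.0-fold higher level. Its log2 ratio of 4.05 ranked 44 of the 10272 expressed genes and was the highest of the 38 members, and its level moved from rank 2984 to rank 117. FASN took 5.32% of the summed RPKM of the 11 fatty acid genes before release and 43.5% after it. That sum was 2.08-fold higher after release with FASN and 1.24-fold higher without it.

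Of the enzymes around FASN, ACACA and SCD passed the 2-fold rule and ACLY did not. ACACA, which makes malonyl-CoA in the committed step, stood at an RPKM of 2.94 and 9.56, a 3.25-fold higher level and a log2 ratio of 1.55. SCD, which introduces the first double bond into saturated chains, stood at 14.8 and 48.2, a 3.25-fold higher level and a log2 ratio of 1.67. ACLY, which cuts citrate into cytosolic acetyl-CoA, was already abundant at 51.9 before release and stood at 71.6 after it, a log2 ratio of 0.46. The level of FASN was 5.27 times that of ACACA and 0.30 times that of ACLY in the low c-Myc library, and 27.6 and 3.68 times in the high one.

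Elongation, further desaturation and activation showed no common direction. ELOVL5, which elongates polyunsaturated chains, stood at an RPKM of 47.8 at 0 h and 20.1 at 24 h, a 2.38-fold lower level and a log2 ratio of -1.23. It had the lowest ratio of all 38 members. ELOVL1, which makes very long saturated chains, stood at 30.9 and 26.9, a log2 ratio of -0.20, so that the order of ELOVL5 and ELOVL1 was turned over after release. ELOVL6, which elongates the product of FASN, stood at 3.96 and 4.0, a log2 ratio of 0.01. The desaturases of polyunsaturated fatty acids kept nearly the same proportion to each other. FADS2 stood at 102 and 133, FADS1 at 8.02 and 9.88, and FADS2 was 12.8 times as high as FADS1 before release and 13.5 times after it. Of the enzymes that attach coenzyme A to long chains, ACSL1 stood at 5.09 and 10.5, a log2 ratio of 0.97, and ACSL3 at 7.83 and 8.18, a log2 ratio of 0.06. ACSL3 had the higher level of this pair before release and ACSL1 after it.

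**Figure D2:**
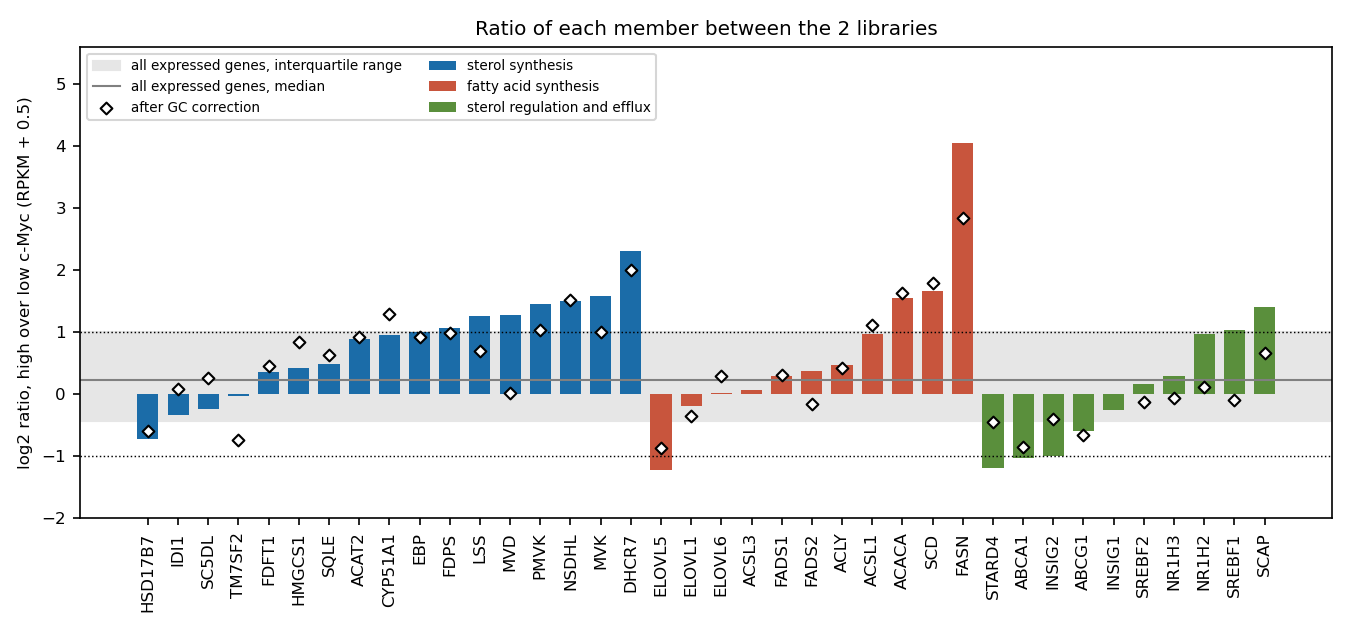
Log2 ratio of high over low c-Myc for each member (bars, on the RPKM + 0.5 scale) in the 3 groups, with the value after correction for transcript GC content (diamonds, absent for ACSL3 and INSIG1). The grey band and line are the interquartile range and the median (0.22) of all 10272 expressed genes, dotted lines mark 2-fold, and FASN at 4.05 stands above all other bars, with a diamond at 2.83.

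Among the regulators of sterol synthesis, before the GC correction, the SREBP genes and SCAP were level or higher and the INSIG genes level or lower. After it 0 of 9 genes of regulation and efflux were higher and 0 lower by the 2-fold rule. SCAP was then at 0.66, SREBF1 at -0.09 and INSIG2 at -0.41. The values that follow are uncorrected. SREBF2, whose product favours sterol genes, was among the most abundant members at an RPKM of 105 and 118, a log2 ratio of 0.16. SREBF1, whose product favours fatty acid genes, stood at 26.7 and 55.0, a log2 ratio of 1.03. The level of SREBF2 was thus 3.94 times that of SREBF1 in the low c-Myc library and 2.14 times in the high one. SCAP, the escort that carries SREBP to the Golgi, stood at 19.5 and 52.7, a 2.70-fold higher level and a log2 ratio of 1.41. INSIG1, which retains SCAP and is itself a target of SREBP, stood at 18 and 14.9, a log2 ratio of -0.26. INSIG2, its paralog, stood at 3.19 and 1.34, a 2.38-fold lower level and a log2 ratio of -1.002 at the edge of the rule. SCAP and INSIG1 had similar levels before release, at a ratio of 1.08, and after release the SCAP level was 3.53 times that of INSIG1. No GC-corrected form of this comparison was available, as INSIG1 had no corrected value. STARD4, which moves sterol between membranes, stood at 8.53 and 3.45, a 2.47-fold lower level and a log2 ratio of -1.19.

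The promoters of these 2 paralog pairs are shown because their members had different ratios before the GC correction. After it SREBF1 and SREBF2 lay close together, at -0.09 and -0.13. INSIG2 was then at -0.41, and INSIG1 had no corrected value. The windows have the same form and the same capitals as above. The SREBF1 window is chr17:17836987-17837236 on the minus strand, the SREBF2 window chr22:41832855-41833104 on the plus strand, the INSIG1 window chr7:155297628-155297877 on the plus strand and the INSIG2 window chr2:118088221-118088470 on the plus strand, the first of 2 starts listed.
SREBF1: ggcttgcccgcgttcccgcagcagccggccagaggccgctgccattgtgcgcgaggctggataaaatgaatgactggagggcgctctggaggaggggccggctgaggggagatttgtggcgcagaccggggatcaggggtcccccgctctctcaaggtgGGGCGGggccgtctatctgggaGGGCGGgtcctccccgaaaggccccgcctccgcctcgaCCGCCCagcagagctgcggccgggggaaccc
SREBF2: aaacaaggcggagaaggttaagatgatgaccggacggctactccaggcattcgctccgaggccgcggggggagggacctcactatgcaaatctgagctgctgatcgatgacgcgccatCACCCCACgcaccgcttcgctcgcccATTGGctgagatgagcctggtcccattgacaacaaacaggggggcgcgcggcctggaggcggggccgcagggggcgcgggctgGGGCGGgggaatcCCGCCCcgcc
INSIG1: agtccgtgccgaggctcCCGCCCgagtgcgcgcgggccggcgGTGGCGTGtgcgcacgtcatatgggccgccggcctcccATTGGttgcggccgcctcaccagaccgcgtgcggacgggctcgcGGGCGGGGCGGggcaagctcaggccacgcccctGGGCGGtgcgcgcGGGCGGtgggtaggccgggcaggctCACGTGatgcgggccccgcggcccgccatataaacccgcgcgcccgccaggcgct
INSIG2: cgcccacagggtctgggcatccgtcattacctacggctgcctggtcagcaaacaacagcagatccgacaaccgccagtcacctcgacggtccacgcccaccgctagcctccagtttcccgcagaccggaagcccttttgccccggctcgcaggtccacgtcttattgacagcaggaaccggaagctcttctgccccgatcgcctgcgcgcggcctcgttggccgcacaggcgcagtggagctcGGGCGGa
The SREBF2 and INSIG1 windows each held 1 match to the sterol response element core and 1 CCAAT box, and the SREBF1 and INSIG2 windows held neither. INSIG1 also held 1 E-box and 5 GC boxes, of which 2 overlap, while SREBF1 held 3 GC boxes, SREBF2 held 2 and INSIG2 held 1. Over the members with a window, genes with the sterol response element core had ratios in both directions and on both sides of 2-fold, among them ACACA (1.55), SCD (1.67), IDI1 (-0.34) and ABCA1 (-1.04).

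Both sterol exporters had lower levels after release on the RPKM scale. Scaled to the synthetic RNAs, that is per cell, ABCA1 was 2.45-fold and ABCG1 3.86-fold higher. ABCG1 stood at an RPKM of 29.97 at 0 h and 19.7 at 24 h, a log2 ratio of -0.60. ABCA1 stood at 3.67 and 1.53, a 2.40-fold lower level and a log2 ratio of -1.04. The LXR receptors that activate these exporters did not have lower levels. NR1H2, which encodes LXR beta, stood at 30.9 and 61.0, a log2 ratio of 0.97, and NR1H3, which encodes LXR alpha, at 2.01 and 2.59, a log2 ratio of 0.30. The level of NR1H2 was 15.3 times that of NR1H3 before release and 23.6 times after it.

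Ratios of the members went with the GC content of their transcripts, as they did over all genes. Over the 36 members whose GC content was known, Spearman's rho of the log2 ratio with GC content was 0.57, and over 9949 expressed genes it was 0.41. Genes are not replicates, and all of them share the same 2 libraries. FASN (65.3% GC), DHCR7 (58.3%) and MVD (65.6%) lay on the GC-rich side, and STARD4 (34.2%), INSIG2 (36.9%) and ELOVL5 (41.0%) on the AT-rich side. Removing the trend left log2 ratios of 2.83 for FASN, 1.998 for DHCR7, 1.79 for SCD, 1.63 for ACACA and 1.51 for NSDHL. These 5 members were higher under every one of the 9 alternatives tried. The correction took MVD from 1.28 to 0.02, SREBF1 from 1.03 to -0.09, SCAP from 1.41 to 0.66, LSS from 1.25 to 0.70 and NR1H2 from 0.97 to 0.11. MVK at 0.998 and FDPS at 0.99 were then just under 2-fold, and PMVK at 1.03 did not. CYP51A1 and ACSL1 passed it, at 1.29 and 1.12. All 4 lower members came within 2-fold, at -0.87 for ELOVL5, -0.86 for ABCA1, -0.46 for STARD4 and -0.41 for INSIG2. After the correction 4 of 17 sterol synthesis genes, 4 of 10 fatty acid genes and 0 of 9 genes of regulation and efflux were higher, where 21.4% of genes with a GC value were higher and 9.12% lower, and the medians were 0.83, 0.37 and -0.13.

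**Figure D3:**
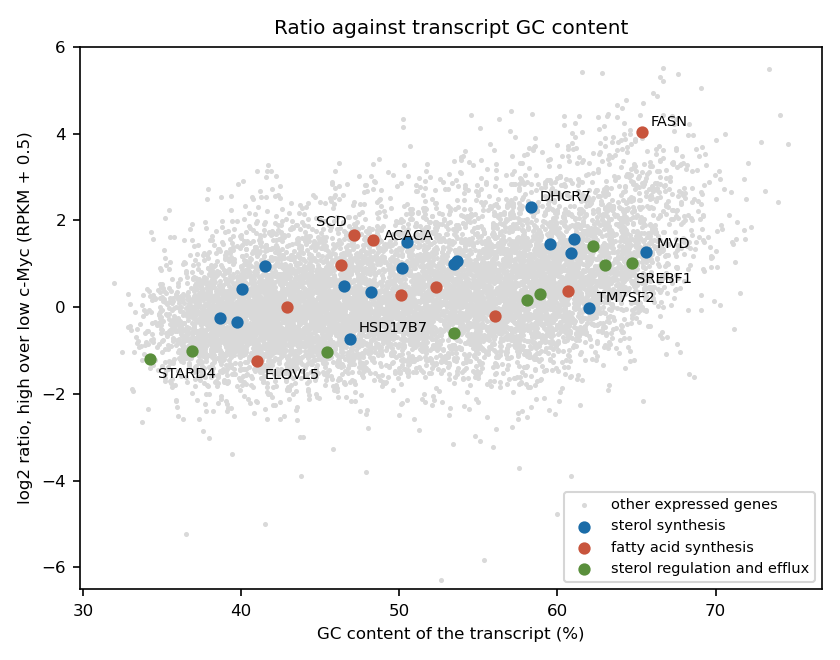
Log2 ratio of high over low c-Myc (RPKM + 0.5) against the GC content of the transcript in percent, for the 36 members with a GC value (coloured by group) and the other expressed genes (grey). FASN and DHCR7 lie above most genes of like GC content, while MVD and SREBF1 lie inside the cloud at the GC-rich side and STARD4 inside it at the AT-rich side.

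Counting error was small beside most of these ratios. The members rested on about 311 (NR1H3) to 56679 (SREBF2) reads at 0 h and 338 (SC5DL) to 238095 (FASN) at 24 h. Without the pseudocount, the log2 ratio of FASN was 4.09 with a 95% counting interval of 4.06 to 4.11, and that of DHCR7 was 2.38 with an interval of 2.31 to 2.45. TM7SF2 (-0.13 to 0.07) and ELOVL6 (-0.10 to 0.13) had intervals that included 0. The intervals of EBP (0.95 to 1.10), CYP51A1 (0.98 to 1.23), ACAT2 (0.87 to 1.05), ACSL1 (0.96 to 1.12) and NR1H2 (0.94 to 1.03) included 1. That of HSD17B7 (-1.02 to -0.63) included -1. Without the pseudocount, their side of 2-fold was thus not set by these reads. The 2-fold rule itself uses the pseudocount, so these intervals do not show which calls counting error leaves unsettled. On the scale of the rule INSIG2 (-1.002), SREBF1 (1.03) and ABCA1 (-1.04) also lay close to the limit. No interval was made for ACSL3 and INSIG1, which had no transcript length. These intervals cover counting error only, and not the spread between cultures, which was not measured.

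When the synthetic RNAs set the scale, so that levels are per cell, every member was higher after release. The RPKM of the 46 synthetic RNAs used was 5.88-fold higher at 0 h by the median, a log2 ratio of -2.56 (interquartile range -2.84 to -2.17), which was subtracted from each gene. All 38 members were then at least 2-fold higher, as were 97.1% of all expressed genes, with 0.0876% lower, so the count is near the background. Per-cell log2 ratios ran from 1.33 for ELOVL5 and 1.36 for STARD4 to 4.86 for DHCR7 and 6.60 for FASN. The medians were 3.51 for sterol synthesis, 2.93 for fatty acid synthesis and 2.51 for regulation and efflux, against 2.78 for all expressed genes. By the ratio of RPKM alone, FASN was 100.1-fold and DHCR7 30.6-fold higher per cell, ABCA1 2.45-fold and INSIG2 2.48-fold. In the authors' deposited table renormalized to the synthetic RNAs, FASN was 84.7-fold higher, and INSIG2 (1.99-fold), ELOVL5 (1.99-fold), ABCA1 (1.96-fold) and STARD4 (1.87-fold) lay just under 2-fold.

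Other genes of the pathway were read from lists chosen by function. Of 12 genes that use isoprenoids for side branches such as prenylation and ubiquinone, all expressed, 3 were higher and none was lower, with a median log2 ratio of 0.45. This share of 25% higher was at that of all expressed genes, 24.9%. PDSS1, which makes the ubiquinone side chain, stood at an RPKM of 0.38 and 4.59, a log2 ratio of 2.54, and COQ2, which attaches it, had one of 1.15. GGPS1, which makes the geranylgeranyl donor, and PGGT1B, a prenyltransferase subunit, were at -0.98 and -0.80. Of 16 expressed genes of 18 for SREBP processing and sterol handling, 2 (12.5%) were higher and 3 lower, where 9.74% of all expressed genes were lower, with a median of 0.02. SCARB1, a receptor for high-density lipoprotein, stood at 32.5 and 111, a log2 ratio of 1.75, and ERLIN1, an endoplasmic reticulum protein, had one of 1.25. The lysosomal genes NPC2, which carries cholesterol out of the lysosome, and LIPA, which frees it from esters, were at -1.52 and -1.30.

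Supply and further processing of fatty acids were read against the same 24.9% of all expressed genes that were higher and 9.74% that were lower. Of 8 expressed genes of 9 for acetyl-CoA and NADPH supply, 3 (37.5%) were higher and none was lower, with a median of 0.87. ACAT1, the mitochondrial counterpart of ACAT2, stood at an RPKM of 5.79 and 24.3, a log2 ratio of 1.98. SLC25A1, which exports citrate for ACLY, had a log2 ratio of 1.14, or -0.11 once corrected for GC content, while IDH1 and ACSS1 were at -0.69 and -0.51. Of 13 expressed genes of 20 for further elongation, desaturation and activation, 2 (15.4%) were higher and 1 lower (median 0.12). The higher genes were MCAT and MECR of the mitochondrial fatty acid synthesis pathway, at 2.66 and 2.11. PTPLAD2, a family member of the dehydratases of elongation, stood at 29.6 and 5.58, a log2 ratio of -2.31, and HSD17B12, a reductase of elongation, had one of -0.69.

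**Figure D4:**
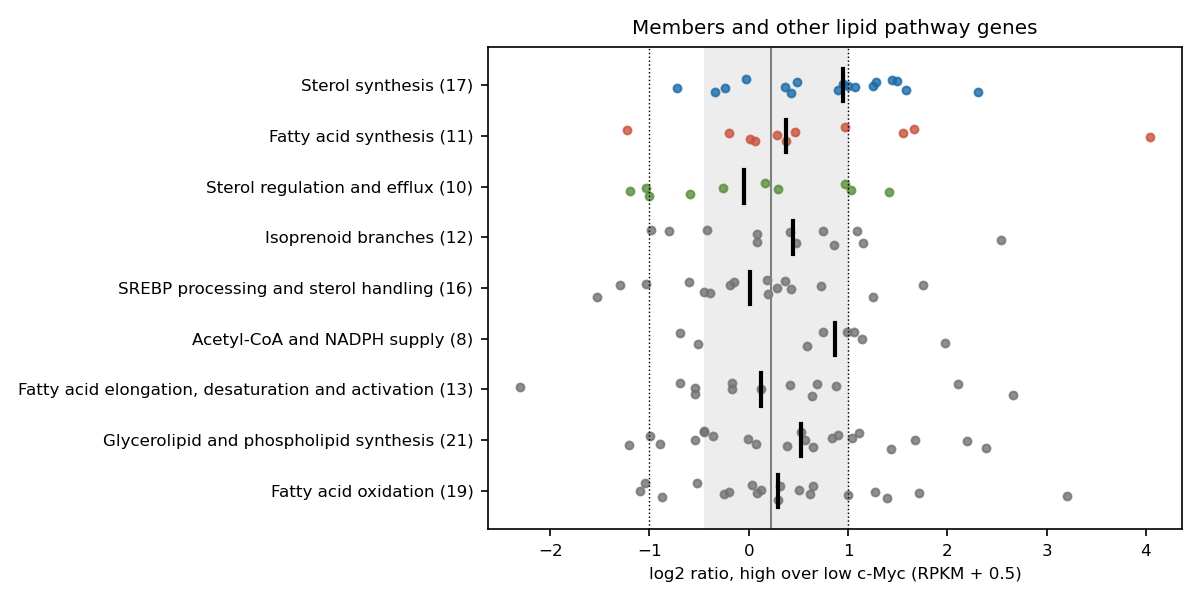
Log2 ratio of high over low c-Myc (RPKM + 0.5) of each expressed gene in the 3 groups of members (coloured) and in 6 other lists of lipid genes (grey), with the number of genes in brackets and a black bar at each median. The grey line and band are the median and interquartile range of all expressed genes and dotted lines mark 2-fold. The medians run from -0.05 for sterol regulation and efflux to 0.95 for sterol synthesis.

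Some member values depend on the transcript read or can share reads with other genes. Of the 19 members with several accessions, 15 had log2 ratios that differed by less than 0.2 between them. ELOVL5 was the widest, from -1.23 to -0.56, followed by CYP51A1 (0.61 to 0.95), INSIG1 (-0.56 to -0.23) and NR1H3 (0.27 to 0.51), and accessions of a gene share most of their reads. Of the members and MSMO1, 5 have named pseudogenes in GENCODE release 29 (FDPS with 8, CYP51A1 with 3, HSD17B7 with 2, FADS2 and SCD with 1 each). The exons of 8 overlap those of a coding gene, among them ACAT2 with TCP1, MVK with MMAB, TM7SF2 with VPS51, NR1H3 with ACP2, SREBF1 with RAI1 and FADS2 with FEN1. The sources used here do not say how the counting treated such reads, so the values of these genes are uncertain to that extent.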

How the data were processed

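Poly(A)-selected RNA was sequenced from 1 low and 1 high c-Myc sample. Per the labels' protocols, ERCC synthetic RNAs were added by cell number, and dUTP libraries received 15 cycles of PCR. Bowtie and the hg18 build are named in the submitters' processing notes. The counting tool, its filters and its use of strand were not given in the sources used here.

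The authors deposited RPKM values per RefSeq transcript, per the file headers, and a further RPKM column that they renormalized to the synthetic RNAs, used only as an alternative because its method is not stated. The tables held 34194 transcript rows of 19096 symbols, each symbol taken at its row with the highest mean RPKM. Genes with a mean RPKM of at least 1 counted as expressed. Log2 ratios used a pseudocount of 0.5, and per-cell ratios subtracted the median of 46 synthetic RNAs, those reaching an RPKM of 1 at both times. A count model does not apply to RPKM, and unreplicated groups allow no p-value.

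Depth was read from RPKM times transcript length. Of 3261 and 2344 transcripts with up to 20 reads, 49.2% and 46.2% were whole to within 0.05, where chance gives 10%. Reads per gene are therefore approximate, and the exact (Clopper-Pearson) 95% binomial intervals made from them hold no error other than counting, as PCR copies are not independent molecules. GENCODE release 29 gave length and GC content, by RefSeq accession, for 9949 (96.9%) of the 10272 expressed genes and 36 of the 38 members. The GC correction removed a lowess trend (span 0.3) and kept the median.

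The members and lists were chosen with earlier results of these data known. All members are named, and for each of 6 other lists the 2 highest and 2 lowest ratios. Python 3.11.15, numpy 2.4.6, pandas 2.3.3, scipy 1.17.1, statsmodels 0.14.6 and matplotlib 3.10.9 were used. The procedure was tested on simulated data.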

Additional observations from a re-analysis of the deposited data

How the results depend on the processing

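No paired analysis was possible because each group held 1 library. In the order sterol synthesis, fatty acid synthesis, and regulation and efflux, the median log2 ratios of 0.95, 0.38 and -0.05 were 0.73, 0.15 and -0.27 after centring on the median of all genes. They were 0.68, 0.060 and -0.36 with both libraries at 1 RPKM sum over the genes alone, and 0.53, -0.14 and -0.55 after quantile normalization. These 3 scalings lowered the median of all expressed genes by 0.22, 0.29 and 0.31. At a mean RPKM of at least 5 the last 2 medians were 0.42 and 0.16. The median of regulation and efflux was -0.10 with RPKM summed over accessions and -0.13 after the GC correction.

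The 7 higher sterol genes, of 17, were 4 with the same RPKM sum, 3 after quantile normalization and 4 after the GC correction. Of all 10272 expressed genes 2554 were higher, and 1885 and 1777 under the first 2 of these settings. After the GC correction 2125 of 9949 (21.4%) were higher. The sterol counts after quantile normalization and the GC correction were thus near the share of all genes. The same RPKM sum gave 1 lower sterol gene, HSD17B7. The 1 lower fatty acid gene was 0 after the GC correction. The 2 higher genes of regulation and efflux were 1 after centring, 1 with the same RPKM sum, 0 after quantile normalization and 0 after the GC correction. The 3 lower ones were 1 with a pseudocount of 1, 1 at a mean RPKM of at least 5 and 0 after the GC correction. SREBF1 was the called member whose sign turned, to -0.092 after the GC correction. Of the 16 called members, 5 kept their call under all 9 alternatives (NSDHL, DHCR7, ACACA, FASN and SCD). The cause was not tested.

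Per cell, the authors' renormalized column gave medians of 2.92, 2.75 and 1.99 in place of 3.51, 2.93 and 2.51. The fatty acid median was 2.91 with the mean of the synthetic RNAs, and it was 2.87, and that of regulation and efflux 2.45, with the 26 synthetic RNAs that reached an RPKM of 10. Counting MSMO1 was chosen after seeing the data. Without the pseudocount, the counting interval of 6 members holds 1 or -1, and depth limits the sign of the 2 whose interval holds 0. The calls use the pseudocount, so these intervals do not show which calls depth limits. No interval was available for ACSL3 and INSIG1.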

Other observations

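Genes that use fatty acids were read from 2 further lists. Of 21 expressed genes of 22 for glycerolipid and phospholipid synthesis, 6 (28.6%) were at least 2-fold higher and 1 (4.76%) lower in the high c-Myc library. Of all expressed genes 24.9% were higher and 9.74% lower, so the count of higher genes was near the background. The median log2 ratio was 0.52 (0.18 after the GC correction) against 0.22 for all expressed genes. After that correction 4 of 19 were higher and 0 lower, where 21.4% and 9.12% of genes with a GC value were. DGAT2, which makes triglyceride, stood at an RPKM of 1.57 and 10.3, a log2 ratio of 2.39, and PTDSS2, which makes phosphatidylserine, at 6.89 and 33.4, a log2 ratio of 2.20. CEPT1, which makes phosphatidylcholine and phosphatidylethanolamine, was the lower gene, at 16.1 and 6.71, a log2 ratio of -1.20, and AGPAT4, an acyltransferase, was at -0.997, just inside 2-fold.

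All 19 genes of fatty acid oxidation were expressed, of which 4 were higher and 2 lower, with a median of 0.29. These counts were near the background of 24.9% higher and 9.74% lower. After the GC correction 2 were higher and 1 lower, where 21.4% and 9.12% of genes with a GC value were. ECI1, which moves double bonds during oxidation of unsaturated chains, stood at an RPKM of 11.7 at 0 h and 112 at 24 h, a log2 ratio of 3.21 (2.08 once corrected for GC content). HADH, a dehydrogenase of the oxidation cycle, had a log2 ratio of 1.71. DECR1, which also serves unsaturated chains, was at -1.09, and ACADVL, the dehydrogenase that starts the oxidation of very long chains, stood at 108 and 51.9, a log2 ratio of -1.05.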
